A study of Mus musculus with 112 samples.

Results

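The mammary tumours described here were divided by their messenger RNA level of Cap1, a gene on mouse chromosome 4, into 39 Cap1-high and 13 Cap1-low tumours. The members were chosen by the log2 value of 1 Cap1 probe set (the first Cap1 probe set below), with a limit in the gap between 10.50 and 10.73, and covered 52 of the 56 tumours in the series. All tumours, Cap1-high and Cap1-low alike, arose spontaneously in transgenic mice with PyMT, the middle T antigen of polyoma virus, an oncogene whose MMTV promoter is active mainly in mammary epithelium. The mice came from crosses of PyMT animals with AKXD sublines, recombinant inbred lines whose parents were AKR/J and DBA/2J mice. No group was free of the transgene, and the labels name no treatment. Each tumour was hybridised to 2 Affymetrix arrays with different probe sets, MOE430A (array A) and MOE430B (array B). Array A values of the 3 tumours of subline 23 and of tumour 3 of subline 25 were left out because those arrays stood apart from the rest, which left 17 of 18 sublines. The array B comparison held 38 Cap1-high and 13 Cap1-low tumours, without tumour 3 of subline 11, whose array B was left out. Tumours of 1 subline are labelled as biological replicates, and the labels do not say whether each came from its own mouse, so p-values measure the spread between these samples. They give the mice no age.

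Cap1 encodes cyclase-associated protein 1, which binds actin monomers and works with cofilin to take actin filaments apart and return their subunits to the pool. The protein was first found in yeast as a partner of adenylyl cyclase, the enzyme that makes cyclic AMP. In mammalian cells it has also been tied to talin, focal adhesion kinase and cell adhesion. AKXD sublines carry fixed stretches of either parental genome, so genes near each other on a chromosome tend to be inherited together, and the comparison asks which other transcripts, on chromosome 4 and elsewhere, differed with the Cap1 level.

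The windows around the annotated starts of Cap1 and of 9930104L06Rik are shown because the second had the smallest p-value of all probe sets compared on array B and lies on the same chromosome. Both are RefSeq sequences of GRCm38.p6, from 250 bases before to 50 bases after the start, 5′ to 3′ on the gene's own strand. Capitals mark the CCAAT box (CCAAT, or ATTGG on the other strand) and the GC box (GGGCGG or CCGCCC), searched on both strands with the TATA motif TATAAA. Cap1 lies on the minus strand at chr4:122886027-122886326 and 9930104L06Rik on the plus strand at chr4:124936798-124937097.
Cap1: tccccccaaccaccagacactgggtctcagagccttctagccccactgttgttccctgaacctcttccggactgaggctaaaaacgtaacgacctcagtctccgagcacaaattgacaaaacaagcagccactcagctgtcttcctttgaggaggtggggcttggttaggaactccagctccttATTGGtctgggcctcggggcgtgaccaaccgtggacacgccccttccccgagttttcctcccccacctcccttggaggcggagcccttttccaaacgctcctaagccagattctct
9930104L06Rik: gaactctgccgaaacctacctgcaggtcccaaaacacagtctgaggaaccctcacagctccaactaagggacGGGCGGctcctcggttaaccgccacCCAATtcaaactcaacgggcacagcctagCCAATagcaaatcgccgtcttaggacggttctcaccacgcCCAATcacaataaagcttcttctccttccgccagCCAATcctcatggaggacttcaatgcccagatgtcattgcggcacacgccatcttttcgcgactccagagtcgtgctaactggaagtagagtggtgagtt
The Cap1 window held 1 CCAAT box, no GC box and no TATA motif, and its GC content was 57.0%. The 9930104L06Rik window held 4 CCAAT boxes and 1 GC box at a GC content of 54.0%. Among the 32851 promoter windows of the same length, 37.4% held a CCAAT box, 35.7% a GC box and 13.6% the TATA motif, and the median GC content was 52.7%. These matches describe letters in reference sequence, not binding.

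Cap1 itself lay on 2 separate levels, and its second probe set, which the division did not use, separated the same tumours. On the first Cap1 probe set the lowest, median and highest log2 values were 10.73, 11.01 and 11.28 in Cap1-high tumours, against 9.97, 10.35 and 10.50 in Cap1-low tumours. The means were 10.99 ± 0.13 (SD, n = 39) in Cap1-high and 10.31 ± 0.15 (SD, n = 13) in Cap1-low tumours, a difference of 0.68 on the log2 scale or 1.6-fold. These values chose the groups and are a description. On the second the values were 9.67, 10.23 and 10.52 in Cap1-high tumours, against 9.17, 9.43 and 9.55 in Cap1-low tumours. The difference was 0.76, or 1.7-fold, and the groups did not overlap on that probe set either. The 2 probe sets measure the same transcript on the same array, and their correlation over the 52 tumours was 0.861. The tumours nearest the limit were tumour 1 of subline 20 at 10.73 on the high side and tumour 3 of subline 21 at 10.50 on the low side. In whole tumours, fewer cells that express Cap1 and less Cap1 RNA per cell cannot be told apart.

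The 2 Cap1 levels followed the sublines in most cases, and in 4 sublines both levels occurred. The labels do not say which parent carried PyMT or whether the mice were a first or a later generation of the cross. The 2 levels within a subline can therefore not be read as its fixed genotype. All tumours were Cap1-high in 11 sublines and Cap1-low in 2, sublines 10 and 21. In subline 7, tumour 2 was Cap1-high at 11.01, against 10.32 and 10.19 in the Cap1-low tumours 1 and 3. In subline 20, tumours 1 and 3 were Cap1-high at 10.73 and 11.09, against 10.09 in the Cap1-low tumour 2. In subline 24, tumour 2 was Cap1-high at 11.09, against 10.35 in each of the Cap1-low tumours 1 and 3. In subline 27, tumour 3 was Cap1-high at 11.18, against 10.41 and 10.42 in the Cap1-low tumours 1 and 2. Within these sublines the Cap1-high tumours exceeded the Cap1-low tumours by 0.74 to 0.82 on the first Cap1 probe set and by 0.81 to 0.95 on the second. The step inside a subline was thus at least as large as the difference between all Cap1-high and all Cap1-low tumours on each probe set. Together they held 5 Cap1-high and 7 Cap1-low tumours, and the other 40 tumours came from sublines on 1 level.

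**Figure D1:**
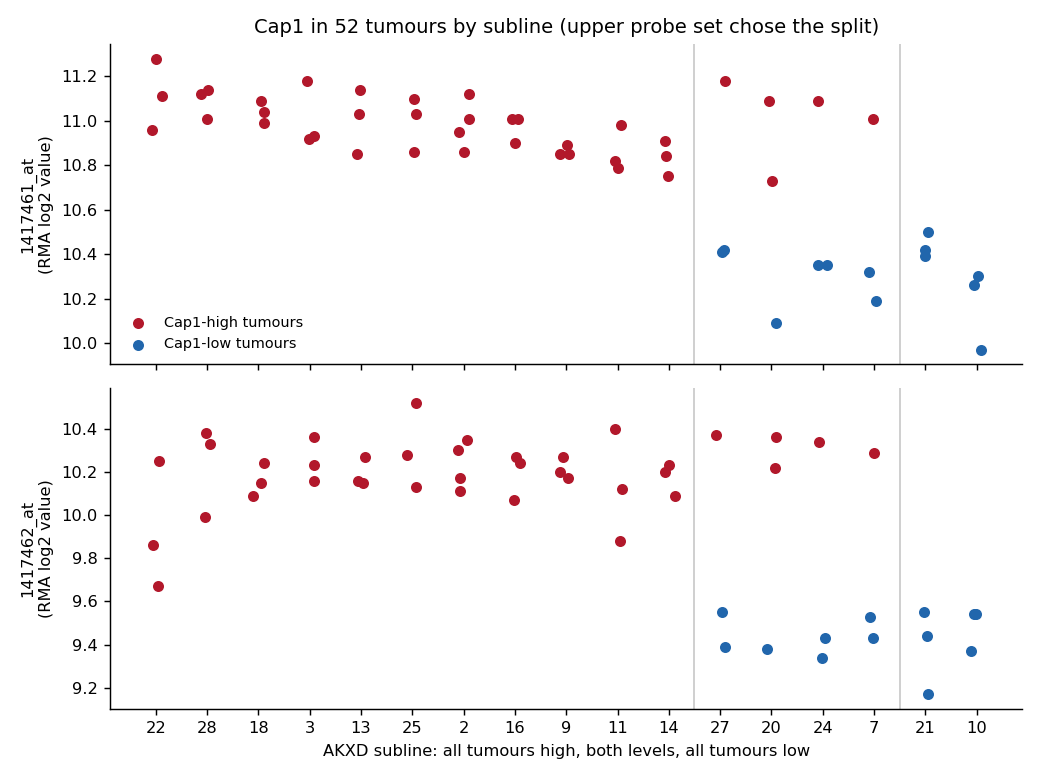
Log2 value of both Cap1 probe sets (vertical axes) for each of the 52 tumours (points), by AKXD subline (horizontal axis; vertical lines part the 11 sublines with all tumours high, the 4 with both levels and the 2 with all tumours low). The gap between 10.50 and 10.73 on the upper probe set chose the groups, and the lower probe set leaves a gap between 9.55 and 9.67 that parts the same tumours.

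The arrays of both groups had similar quality, with a somewhat wider spread of values in Cap1-low tumours on array A. The interquartile range of an array A was lowest, median and highest at 2.46, 2.68 and 2.86 in Cap1-high tumours, against 2.68, 2.78 and 2.85 in Cap1-low tumours. The median correlation of an array A with the others was 0.981, 0.988 and 0.991 in Cap1-high and 0.970, 0.988 and 0.991 in Cap1-low tumours. The Gapdh 3′ minus 5′ difference, a measure of RNA integrity, was -0.278, -0.184 and 0.0943 in Cap1-high and -0.234, -0.129 and 0.189 in Cap1-low tumours. The samples read as mammary tumours of either group: the luminal keratin Krt18 averaged 12.85 in Cap1-high and 12.75 in Cap1-low tumours, and the milk casein Csn3 averaged 14.38 in Cap1-high and 14.27 in Cap1-low tumours. Control probe sets for absent transcripts read 4.71 to 5.04 on array A and 4.54 to 5.04 on array B.

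No other probe set on either array divided the tumours the way Cap1 did. Apart from Cap1's own, 0 of 22624 probe sets on array A and 0 of 22511 on array B had values that did not overlap between the groups. The differences that passed the test were small. On array A, limma with the subline as a random block called 1975 probe sets at a Benjamini-Hochberg adjusted p under 0.05, which is 8.73% of those tested, and 6575 had an unadjusted p under 0.05. Of the called probe sets 1423 (6.29% of those tested) were higher and 552 (2.44%) were lower in Cap1-high tumours. Their median absolute difference was 0.14 on the log2 scale, and 13 exceeded 0.5. On array B, 21 probe sets were called (0.0933%), 5 higher (0.0222%) and 16 lower (0.0711%), with a median absolute difference of 0.27. The called probe sets belonged to 1620 of 12392 genes on array A (13.1%) and to 13 of 9607 genes on array B (0.135%).

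The array A count rested on a few sublines and settings. It was 32 without the 3 tumours of subline 21, 9 without subline 27, 410 without subline 24 and 649 without subline 7. It was 23 without the tumours numbered 1, 487 without those numbered 2 and 0 without those numbered 3, where 3714 probe sets still had an unadjusted p under 0.05 in limma. With scores for adipocytes, T cells, B cells and skeletal muscle in the model it was also 0, with 2290 at an unadjusted p under 0.05. After quantile normalization, which gives all arrays 1 distribution, 429 probe sets were called. The array B count was 1 without subline 21, 6 without subline 24, 34 without subline 10 and 85 without subline 7. It was 1 without the tumours numbered 1, 151 without those numbered 2 and 2 without those numbered 3. Array A calls below therefore describe these tumours, with n = 13 Cap1-low.

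The direction of the array A calls followed the brightness of the probe set. In the dimmest of 4 equal classes, with mean log2 values up to 6.53, 430 probe sets were called higher and 24 lower in Cap1-high tumours. In the next class 651 were higher and 90 lower, and in the third 279 were higher and 192 lower. In the brightest class, above 9.19, the order turned, with 63 higher and 246 lower. The median difference over all probe sets of a class fell in the same way, at 0.055, 0.051, -0.022 and -0.039. The wider interquartile range of the Cap1-low arrays moved with this pattern, and its part in the calls was not tested beyond quantile normalization. Of the 429 probe sets called after it, 292 were higher and 137 lower in Cap1-high tumours, which is 68.1% higher, beside 72.1% without it.

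**Figure D2:**
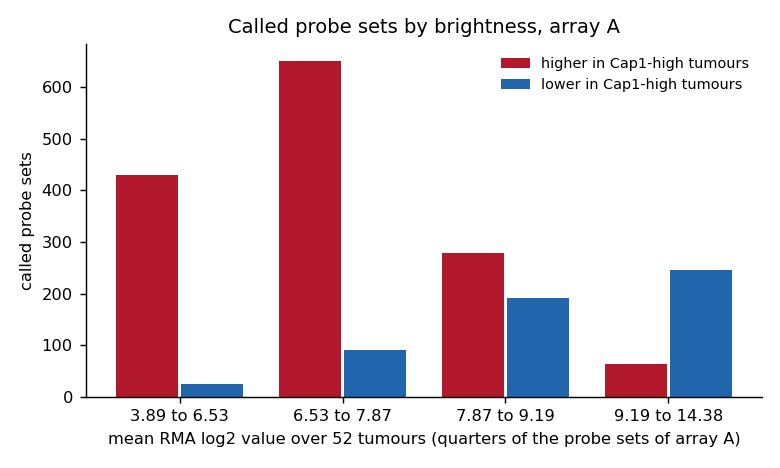
Number of called probe sets on array A (vertical axis) in 4 classes of equal size by mean log2 value over the 52 tumours (horizontal axis), higher (left bar) and lower (right bar) in Cap1-high tumours. Higher calls prevail among dim probe sets, 651 against 90 in the second class, and lower calls in the brightest class, 246 against 63.

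Of the 13 genes called on array B, 4 lay near Cap1. Within the span of the 100 genes measured on array A on each side of Cap1, array B measured 160 genes and 4 had a called probe set, which is 2.5%, beside 1 of 410 on the rest of chromosome 4 (0.244%), 8 of 8895 on other chromosomes (0.0899%) and 0.135% over all genes. The 4 genes were 9930104L06Rik and Rhbdl2, higher in Cap1-high tumours, and Scmh1 and AU022252, lower. On array A the share of called genes near Cap1 was close to the background. Of the 200 genes nearest to Cap1, 25 were called (12.5%), 18 higher and 7 lower, beside 68 of 538 on the rest of chromosome 4 (12.6%) and 13.1% of all genes. By distance, 8 of the nearest 50 genes were called (16.0%), 7 of the next 50 (14.0%) and 10 of the next 100 (10.0%).

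**Figure D3:**
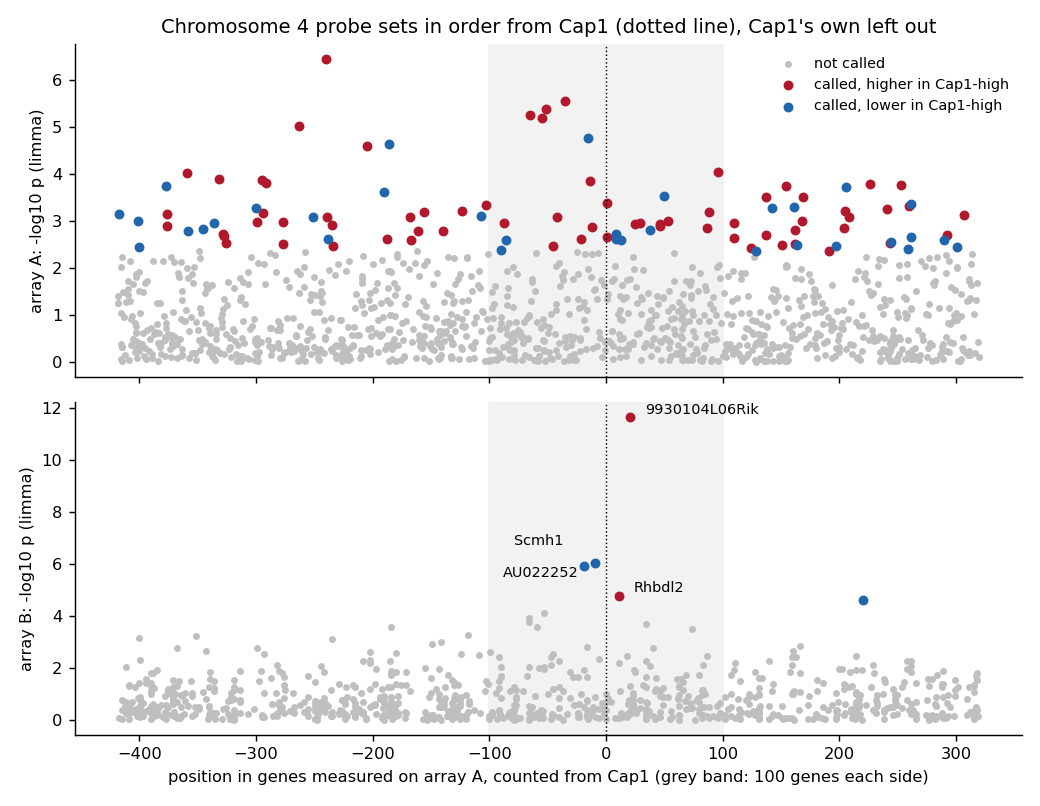
Negative log10 of the unadjusted limma p (vertical axes) of the chromosome 4 probe sets of array A (top) and array B (bottom), by position in genes counted from Cap1 (horizontal axis; the grey band spans 100 genes on each side). On array B 4 of the 5 called chromosome 4 genes lie in the grey band, with 9930104L06Rik at the top, while on array A called probe sets are spread along the chromosome.

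The transcript 9930104L06Rik, known by its RIKEN clone name, was higher in Cap1-high tumours and differed most clearly of all genes compared on array B. It lies 21 array A genes beyond Cap1 towards the end of the chromosome and has 1 probe set. Its log2 values were 5.57, 5.87 and 6.11 (lowest, median and highest) in Cap1-high tumours, against 5.26, 5.56 and 5.75 in Cap1-low tumours. Of the 13 Cap1-low tumours 5 lay within the range of the Cap1-high tumours, and 8 lay below all of them. The fitted difference was 0.31 ± 0.03 (SE), or 1.24-fold, with an adjusted p of 5.16e-08 in limma. The transcript was dim in both groups, above the mean of the controls for absent transcripts.

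Its difference from Cap1-high to Cap1-low tumours had the same sign in every subline that held both levels. In subline 7 it read 5.78 in the Cap1-high tumour, against 5.59 and 5.56 in the Cap1-low tumours. In subline 24 it read 6.0 in the Cap1-high tumour, against 5.49 and 5.56 in the Cap1-low tumours. In subline 27 it read 5.94 in the Cap1-high tumour, against 5.52 and 5.54 in the Cap1-low tumours. In subline 20 it read 5.80 and 5.94 in the Cap1-high tumours, against 5.75 in the Cap1-low tumour. The smallest step was thus in subline 20 and the largest in subline 24, at 0.12 and 0.48. Within these 12 tumours alone the fitted difference was 0.30 ± 0.07, with an unadjusted p of 0.000683 and an adjusted p of 0.346 in limma.

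The call of 9930104L06Rik held in 18 of 21 alternative fits, with the same sign in all 21. It was called without subline 21, at an adjusted p of 8.03e-07, and with the cell type scores in the model, at 4.77e-06. The 3 fits without a call were the one on subline means (adjusted p 0.0563), the one on the sublines with both levels, and the one with all arrays (0.0532). With the Cap1 value as a continuous measure its adjusted p was 4.13e-05.

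The other 3 array B genes near Cap1 were called on 1 probe set each, and none of their other probe sets was called. Rhbdl2 encodes a rhomboid protease that cuts proteins within the membrane. The called probe set read 7.47, 7.72 and 7.99 in Cap1-high tumours, against 7.28, 7.55 and 7.69 in Cap1-low tumours, a difference of 0.19 ± 0.04 (adjusted p 0.0263, limma). Its remaining probe sets differed by 0.01 and -0.11. Scmh1 encodes a Polycomb group protein of gene silencing. The called probe set read 4.44, 4.69 and 4.99 in Cap1-high tumours, against 4.68, 5.02 and 5.49 in Cap1-low tumours, a difference of -0.28 ± 0.05 (adjusted p 0.00669). These values lie at the level of the controls for absent transcripts, and its brighter array A probe set differed by -0.14 with an adjusted p of 0.129. AU022252, a gene named after a sequenced tag, read 7.27, 7.48 and 7.66 in Cap1-high tumours, against 7.30, 7.68 and 7.88 in Cap1-low tumours. Its difference was -0.19 ± 0.04 (adjusted p 0.00669), while its other probe sets ran the other way, at 0.04 and 0.08. With the cell type scores in the model AU022252 kept its call (adjusted p 0.0112), while Rhbdl2 (0.193) and Scmh1 (0.133) lost theirs. Without subline 21 all 3 lost the call. Their differences were then 0.15 for Rhbdl2 (adjusted p 0.247), -0.22 for Scmh1 (0.114) and -0.19 for AU022252 (0.0901).

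**Figure D4:**
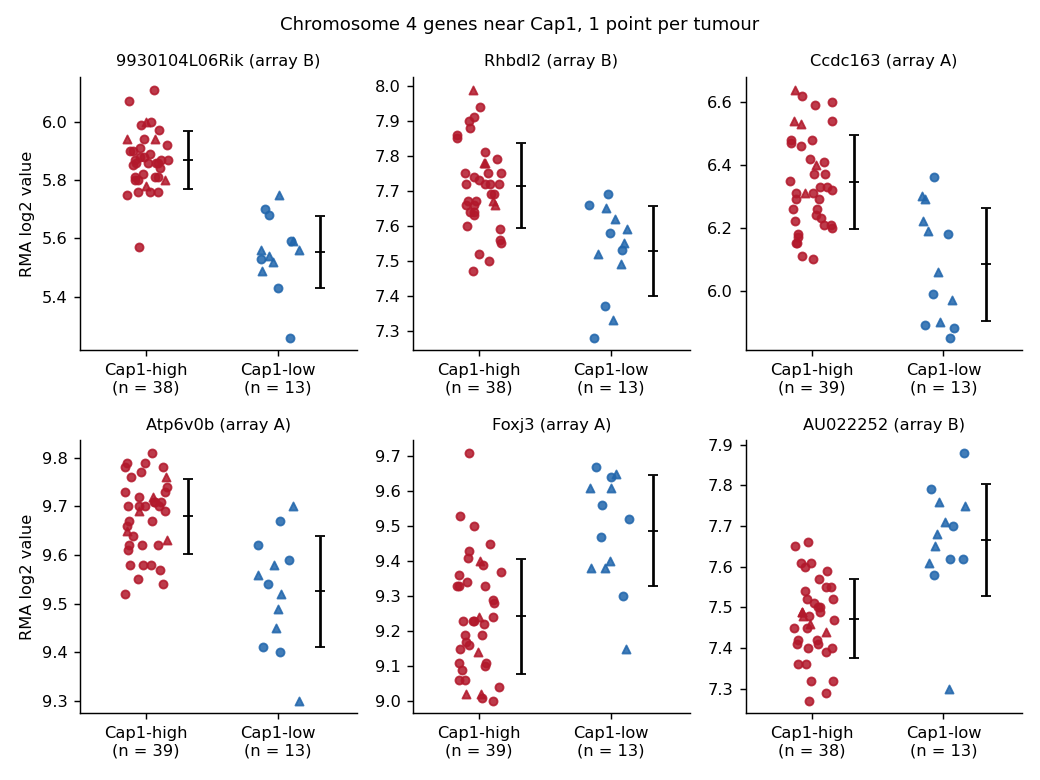
Log2 value (vertical axes) of 6 genes near Cap1 in each tumour (points; triangles are tumours of the 4 sublines with both levels), Cap1-high on the left and Cap1-low on the right of each panel, with mean ± SD beside the points. In every panel the groups overlap, and for 9930104L06Rik 8 of 13 Cap1-low tumours lie below all Cap1-high tumours.

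Among the 5 measured genes on each side of Cap1, only Mycl had called probe sets. Ppt1, a lysosomal enzyme that removes fatty acids from proteins, is the nearest gene on one side, and none of its 5 probe sets on both arrays was called. The first of its array A probe sets averaged 9.53 in Cap1-high and 9.58 in Cap1-low tumours. Over the 5 probe sets the difference ran from -0.06 to 0.04. Mycl, a transcription factor of the Myc family, is the nearest measured gene on the other side. Of its probe sets 2 were higher in Cap1-high tumours by 0.19 ± 0.05 (adjusted p 0.0229) and 0.16 ± 0.05 (adjusted p 0.0382), while the third differed by 0.07 (adjusted p 0.165). The Mycl calls were lost without subline 21, at adjusted p of 0.0805 and 0.117, and with the cell type scores, at 0.434 and 0.538.

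A further 8 neighbours had no called probe set. They were Col9a2, a chain of cartilage collagen, Zmpste24, the protease that matures lamin A, Rlf, a zinc finger protein, and 9530002B09Rik towards the start of the chromosome. Towards the end they were Trit1, a transfer RNA modifying enzyme, Bmp8b, a growth factor of the bone morphogenetic family, Ppie, a peptidyl-prolyl isomerase of the spliceosome, and Heyl, a Notch target. Among them Trit1 averaged 7.81 in Cap1-high and 7.93 in Cap1-low tumours, a difference of -0.12 ± 0.06 (adjusted p 0.142). Zmpste24 averaged 10.36 in Cap1-high and 10.45 in Cap1-low tumours (adjusted p 0.0987). The remaining differences of the 8 genes lay between -0.11 and 0.12.

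Farther out but within 100 genes, 6 array A genes with the smallest p-values were higher and 2 lower in Cap1-high tumours. Atp6v0b, a membrane subunit of the proton pump that acidifies vesicles, lies 35 genes from Cap1. The called probe set read 9.52, 9.70 and 9.81 in Cap1-high tumours, against 9.30, 9.54 and 9.70 in Cap1-low tumours, a difference of 0.16 ± 0.03 (adjusted p 0.0108). Its other probe sets differed by 0.05 and 0.04 and were not called. Ccdc163, a coiled-coil protein gene, read 6.10, 6.32 and 6.64 in Cap1-high tumours, against 5.85, 6.06 and 6.36 in Cap1-low tumours, a difference of 0.26 ± 0.05 (adjusted p 0.0108). It was also among the 5 genes whose array A values correlated most with Cap1 over the 52 tumours (r = 0.54, which rests on the same values as the split). Its array B probe set differed by 0.06 with an adjusted p of 0.371.

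The other higher genes were Gpbp1l1, Dmbx1, a homeobox gene of the brain, Guca2a, the gut hormone guanylin, and Ahdc1, a DNA-binding protein. Their differences were 0.23 for Gpbp1l1, 0.22 for Dmbx1, 0.19 for Guca2a and 0.18 for Ahdc1, with adjusted p between 0.0108 and 0.0181. Another array A probe set of Ahdc1, as bright as the first, differed by 0.00 (adjusted p 0.990), and its array B probe set by -0.04. Foxj3, a forkhead transcription factor 15 genes from Cap1, was lower on the brightest of its probe sets. It read 9.00, 9.23 and 9.71 in Cap1-high tumours, against 9.15, 9.52 and 9.67 in Cap1-low tumours, a difference of -0.25 ± 0.05 (adjusted p 0.0125). A dimmer probe set ran the other way, at 0.13 (adjusted p 0.0750). S100pbp, 50 genes from Cap1, was lower by 0.20 (adjusted p 0.0210). Of these 8 genes only Atp6v0b passed the threshold without subline 21, at an adjusted p of 0.0481, and none passed with the cell type scores. With all arrays in the fit the difference changed sign for Ccdc163, Dmbx1, Guca2a, Ahdc1 and S100pbp.

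**Figure D5:**
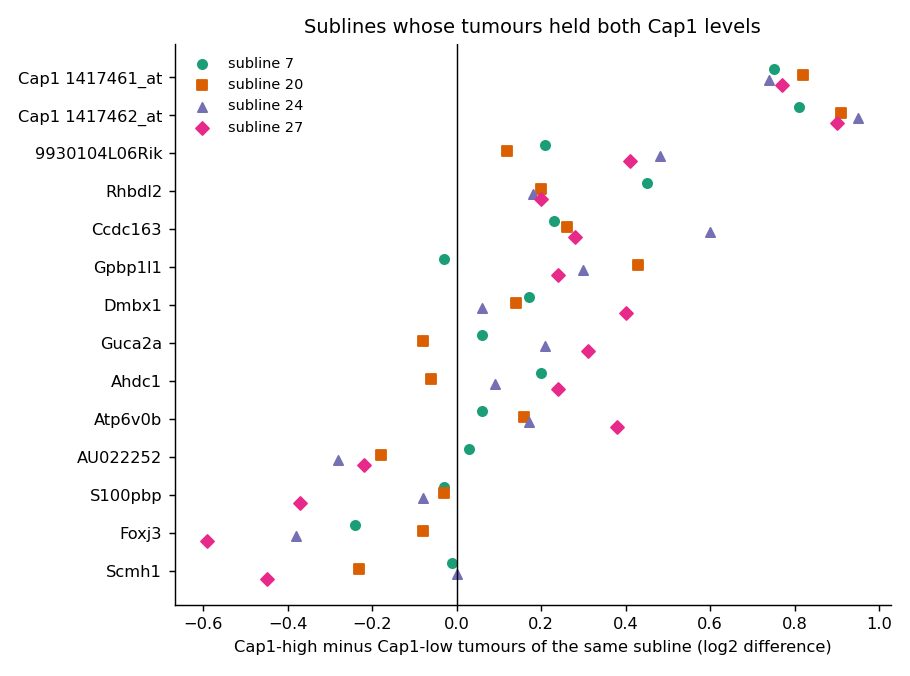
Difference in log2 value (horizontal axis) between the Cap1-high and Cap1-low tumours of the same subline for Cap1 and 12 nearby called genes (rows), 1 marker for each of the 4 sublines with both levels. Both Cap1 probe sets lie at 0.74 or more in all 4 sublines, whereas 9930104L06Rik lies between 0.12 and 0.48 and Guca2a on both sides of 0.

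Elsewhere on chromosome 4 the called genes had differences of similar size. Actl7b, a testis actin-like protein 240 genes from Cap1, read 7.61, 7.81 and 8.01 in Cap1-high tumours, against 7.52, 7.65 and 7.80 in Cap1-low tumours. Its difference of 0.19 ± 0.03 had the smallest adjusted p of array A, 0.00793, and it remained called without subline 21 (0.0414). Nr4a3, an orphan nuclear receptor, was higher by 0.20, and Orm3, an acute phase plasma protein, by 0.17. Among lower genes, Mpdz, a scaffold of cell junctions, averaged 7.65 in Cap1-high and 8.05 in Cap1-low tumours, a difference of -0.39 ± 0.08 (adjusted p 0.0128). In the sublines with both levels alone its difference was -0.08. Vamp3, a vesicle fusion protein, was lower by 0.31, and Casp9, an initiator of apoptosis, by 0.19. Other probe sets of Mpdz differed by -0.03 to 0.09 and none was called, and the other probe sets of Nr4a3 and Casp9 were not called either. Vamp3 was called on a second of its 5 probe sets, at -0.14, while its others differed by -0.10 to -0.01 and were not called. On array B Zfp979 averaged 4.90 in Cap1-high and 5.28 in Cap1-low tumours, a difference of -0.39 ± 0.08 (adjusted p 0.0337). That gene is dim, and its difference ran from -0.78 to 0.30 within the sublines with both levels. Apart from Actl7b, each of these genes lost its call without subline 21, with adjusted p of 0.0562 for Nr4a3 and Orm3, 0.0686 for Mpdz, 0.110 for Vamp3, 0.0899 for Casp9 and 0.298 for Zfp979.

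On other chromosomes the lower genes had the larger differences. Pde2a, a phosphodiesterase that breaks down cyclic AMP and cyclic GMP, was lower in Cap1-high tumours on both arrays. On array A it read 7.22, 7.55 and 8.19 in Cap1-high tumours, against 7.49, 8.03 and 8.74 in Cap1-low tumours, a difference of -0.43 ± 0.08 (adjusted p 0.0108). On array B it read 9.80, 10.16 and 10.75 in Cap1-high tumours, against 10.15, 10.69 and 11.25 in Cap1-low tumours, a difference of -0.44 ± 0.08 (adjusted p 0.00491). Another array B probe set of the gene differed by -0.04 and was not called. Without subline 21 its adjusted p was 0.0481 on array A and 0.0729 on array B. Its difference was smaller in the sublines with both levels, at -0.19 on array A and -0.30 on array B, than in those on 1 level, at -0.65 and -0.59, and the difference between them was not tested.

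Ssh2 encodes a slingshot phosphatase that switches cofilin on, and both of its array B probe sets were lower in Cap1-high tumours. The first read 8.85, 9.30 and 9.64 in Cap1-high tumours, against 9.14, 9.60 and 9.93 in Cap1-low tumours, a difference of -0.32 ± 0.06 (adjusted p 0.00822). The second differed by -0.29 ± 0.06 (adjusted p 0.00822), and all 4 sublines with both levels had the same sign on the first. Arhgap31, which turns off the actin regulators Rac1 and Cdc42, averaged 8.63 ± 0.28 in Cap1-high and 9.18 ± 0.55 in Cap1-low tumours (SD) on its brightest probe set, a difference of -0.55 (adjusted p 0.0248). A probe set on array A was also called, at -0.28 (adjusted p 0.0181), and 2 others differed by -0.01 and 0.02. Ankrd11 and Nsd2, both chromatin regulators, were lower by 0.41 and 0.27, each on 1 probe set. The 6 other Ankrd11 probe sets differed by -0.25 to 0.05 and the 4 other Nsd2 probe sets by -0.05 to 0.04, and none was called. On array A Zfp423, a zinc finger factor of fat cell precursors, averaged 6.74 in Cap1-high and 7.43 in Cap1-low tumours, a difference of -0.68 ± 0.14 (adjusted p 0.0114). The higher genes with the smallest p-values, among them Mef2d, Cib1, Pllp, Gpat4, Neurl1a, Lce3c, Muc5ac and Vmn1r44, differed by 0.15 to 0.24. The brighter probe sets of Cib1 and Gpat4 differed by -0.02 (adjusted p 0.892) and 0.10 (adjusted p 0.219). The other probe sets of Mef2d differed by -0.09 and 0.03, and those of Neurl1a by 0.00 to 0.08, and none of them was called. Without subline 21 the array B calls of Ssh2, Arhgap31, Ankrd11 and Nsd2 were lost, with differences of -0.27 (adjusted p 0.169), -0.48 (0.165), -0.41 (0.114) and -0.26 (0.0901), and so was that of Zfp423 at -0.50 (0.0650). With the cell type scores the adjusted p was 0.193 for Ssh2, 0.208 for Arhgap31, 0.143 for Ankrd11 and 0.193 for Nsd2.

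The genes that act with Cap1 in actin turnover were called in both directions. Of 19 measured members 2 were called higher and 2 lower in Cap1-high tumours, and 15 were not called, beside 13.1% of all genes called. The median difference of the list was -0.03, against 0.006 over all genes. Pfn2, a profilin that loads actin monomers for assembly, averaged 8.62 in Cap1-high and 9.01 in Cap1-low tumours on its brightest probe set, a difference of -0.38 ± 0.12 (adjusted p 0.0387). Cfl1, the cofilin Cap1 works with, was lower by 0.12 on 1 probe set (adjusted p 0.0492) and differed by -0.01 on the other. The actin gene Actb was higher by 0.29 on the dimmer probe set (adjusted p 0.0477) and differed by 0.03 on the brighter one. Tmsb10, a thymosin that holds actin monomers, was higher by 0.14 on 1 of 5 probe sets. That probe set averaged 5.15 in Cap1-high and 5.01 in Cap1-low tumours, near the controls for absent transcripts. The other Tmsb10 probe sets, all brighter, ran the other way at -0.09 to -0.04, and none was called.

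Actin nucleation, elongation and capping genes numbered 22, of which none was called higher and 2 lower, with a median difference of -0.07, beside 13.1% of all genes called. These were Brk1 and Arpc5l, subunits of the WAVE and Arp2/3 complexes, lower by 0.14 and 0.15, each on 1 probe set. Of 12 genes of talin, focal adhesion kinase and Rap1 adhesion, 2 were called higher and 1 lower, beside the same 13.1%. The integrins Itga5 and Itgav were higher by 0.14 and 0.16, each on 1 dim probe set, of 4 and 5 measured. The brightest Itgav probe set differed by -0.06 (adjusted p 0.634). Talin itself, Tln1, lies on chromosome 4 as well, 300 genes from Cap1. It was lower by 0.18 on its brightest probe set (adjusted p 0.0236, limma). Another differed by 0.03 and its array B probe set by -0.19, neither called. Without subline 21 the Tln1 call was lost, at an adjusted p of 0.113, and in the sublines with both levels its difference was -0.09.

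Of 16 genes of adenylyl cyclase and cyclic AMP, 1 was called higher and 3 lower, beside 13.1% of all genes called. The cyclase Adcy7 was lower on all 3 probe sets, by 0.53, 0.47 and 0.24, with adjusted p of 0.0172, 0.0181 and 0.0487. On the probe set with the widest difference it averaged 6.18 ± 0.40 in Cap1-high and 6.71 ± 0.36 in Cap1-low tumours (SD). Adcy9, another cyclase, was lower by 0.25 and the stimulatory G protein Gnas by 0.12, each on 1 probe set. Prkar1b, a regulatory subunit of protein kinase A, was higher by 0.16 on 1 of 5 probe sets. These counts come from the array A fit, so the limits given for it hold for them: with the cell type scores no member of any list was called.

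The markers of other cell types are read beside the 13.1% of all genes called. Among adipocyte markers 1 of 7, the lipase Pnpla2, was called higher, by 0.18 on its dimmer probe set, while the brighter one differed by -0.05. Each score is the mean, over the markers of a list, of the deviation from that marker's average log2 value. The adipocyte score ran from -1.12 to 1.29 with a median of -0.01 in Cap1-high tumours, against -0.95 to 1.40 with a median of -0.42 in Cap1-low tumours. Of 9 T cell markers Cd8a and Cd247 were called higher, by 0.12 and 0.13, each on 1 probe set, of 5 and 4 measured. Their other probe sets differed by 0.03 to 0.08, and none was called. The called Cd247 probe set read near the controls for absent transcripts. The T cell score had a median of 0.01 in Cap1-high tumours, range -0.16 to 0.27, against -0.13 in Cap1-low tumours, range -0.21 to 0.32. The skeletal muscle score spread from -2.97 to 2.80 in Cap1-high and from -2.85 to 2.60 in Cap1-low tumours, with none of 10 markers called. None of the markers of B and plasma cells (7 measured), macrophages (8), endothelium (8), fibroblasts (7) or basal and myoepithelial cells (8) was called, nor were 13 proliferation genes. Among 9 luminal markers Elf5, a transcription factor of milk-producing cells, was higher by 0.36 on 1 of its 2 probe sets (adjusted p 0.0403). None of 8 milk protein genes was called, although their median difference was 0.45 and their score had a median of -0.10 in Cap1-high tumours, range -2.61 to 1.84, against -0.39 in Cap1-low tumours, range -1.50 to 0.70. Apart from the fit with 4 of these scores, their part in the other results was not tested.

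Other genes with 2 expression levels in these tumours did not share the Cap1 division over the 52 tumours. This list of 9 genes on other chromosomes came from earlier results of the same tumours. At the probe set with the widest gap none was called. Pdxdc1 was above its gap in 24 of 39 Cap1-high and 9 of 13 Cap1-low tumours. Adi1, an enzyme of methionine salvage, was above it in 25 of 39 Cap1-high and 9 of 13 Cap1-low tumours. The class I histocompatibility gene H2-D1 was above it in 19 of 39 Cap1-high and 9 of 13 Cap1-low tumours, and Kctd14 in 21 of 39 Cap1-high and 3 of 13 Cap1-low tumours. Of these genes 2 had a called probe set elsewhere: Mtmr9 was lower by 0.53 on 1 probe set (adjusted p 0.0347) and Suz12 higher by 0.14 on 1 probe set (adjusted p 0.0466). The other Mtmr9 probe sets each differed by -0.40, and 3 brighter Suz12 probe sets ran the other way, at -0.22, -0.25 and -0.20, none of them called. Without subline 21 both calls were lost, at adjusted p of 0.0562 for Mtmr9 and 0.0975 for Suz12. Over all tumours of the split the Kctd14 probe sets of the 2 arrays ran in opposite directions. They differed by 0.26 and 0.38 on array A and by -0.22 and -0.40 on array B, none of them called. Within the sublines with both levels Kctd14 differed by 1.02 ± 0.20 at its widest gap on array A (unadjusted p 0.000455, limma), against -0.13 in those on 1 level. In the same fit Mtmr9 differed by -0.72 ± 0.17 on its called probe set (unadjusted p 0.00139), with 1 sign in all 4 sublines. For the other genes the unadjusted p at the widest gap ran from 0.0909 (Adi1) to 0.994 (H2-D1). No probe set was called in that fit.

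The genes whose array A values followed Cap1 most closely, as a description over the 52 tumours, were Cfb, Rbks, Glo1, Ccdc163 and Sub1. Their correlations with the first Cap1 probe set were 0.57 for Cfb, complement factor B, 0.57 for Rbks, ribokinase, and -0.55 for Glo1, the glyoxalase that clears methylglyoxal. They were 0.54 for Ccdc163 and -0.54 for Sub1, a transcription coactivator. The second Cap1 probe set, at 0.861, stood well above all of them. Cfb averaged 8.57 in Cap1-high and 8.13 in Cap1-low tumours, the widest difference of these 5 genes at 0.44 ± 0.13. The Sub1 correlation belongs to a dim probe set with a mean of 6.60. Its brighter probe set, with a mean of 11.22, differed by 0.01 between the groups and was not called. Tumours of a subline come from crosses with the same inbred line, and all values share the arrays, so no p is given for the correlations.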

How the data were processed

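Tumour RNA was hybridised to single-colour Affymetrix arrays. The deposited files hold log2 values of expression, made by the authors with RMA, per the submitters' processing notes. Its version is not given in the sources used here, nor are its probe set definition and genome build. Arrays A and B were separate tables and were tested separately. Control probe sets, 64 on each array, were not compared. Gene symbols came from the platform annotation, updated through the RefSeq table of GRCm38.p6, which also gave gene order. On array A 20380 probe sets had 1 symbol, 691 several and 1555 none, and those with several name no gene here.

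Tumours above the limit on the first Cap1 probe set were compared with those below by limma 3.58.1 in R 4.3.3 (lmFit, eBayes), with subline as a random block (duplicateCorrelation, statmod 1.5.0). All probe sets of an array shared 1 correlation within sublines, 0.0318 on array A and 0.0178 on array B. Without the block 2377 probe sets were called on array A and 23 on array B. The Benjamini-Hochberg adjustment ran over an array's probe sets without Cap1's, and an adjusted p under 0.05 is called. A gene is called if any of its probe sets is. Tables were made with Python 3.11.15. Precision is limited by how many arrays there are. The scripts were tested on simulated data.

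Members, lists and tests were chosen with earlier results of these data known. Named genes were the called genes with the smallest p in each direction (up to 12 on chromosome 4 and 8 elsewhere on array A, 6 and 5 on array B), up to 4 members per list, the 5 measured neighbours on each side of Cap1, and the 5 genes most correlated with it. Alternatives were no block, subline means, sublines on 1 or both levels only, leaving out tumours within 0.2 of the limit, Cap1 as a continuous value, all arrays, quantile normalization, brighter probe sets only, cell type scores as covariates, a trended robust prior, the replicate block, leaving out each replicate number and, added after seeing the data, leaving out each subline that holds Cap1-low tumours. The fit on subline means left out the sublines with both levels.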

Additional observations from a re-analysis of the deposited data

Results flagged for a closer look

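Tumours of a group of 4 to 10 were checked for a highest or lowest value far from the nearest other, relative to the range of the group. Of 42 such groups 3 had one, and chance gives about 1 in 20. Guca2a read 7.32 in tumour 1 of subline 2, against 6.66 to 6.78 in the other tumours of that subline (n = 4), all Cap1-high. Among the 7 Cap1-low tumours of the sublines with both levels, 9930104L06Rik read 5.75 in tumour 2 of subline 20, against 5.49 to 5.59 in the others. In the same 7 tumours AU022252 read 7.30 in tumour 3 of subline 7, against 7.61 to 7.76 in the others. The cause of these values was not tested.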

How the results depend on the processing

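Counts of called probe sets on arrays A and B and of called genes near Cap1 on array A, 1975, 21 and 25 in the report, changed as follows. On array A the count was 1 on subline means (11 Cap1-high and 2 Cap1-low sublines) and 26 with sublines on 1 level only. It was 32 without tumours near the limit, 3 with all arrays, 429 after quantile normalization and 377 among brighter probe sets. It was 0 with sublines on both levels only, with Cap1 as a continuous value and with composition covariates, where limma gave 3237, 3189 and 2290 at an unadjusted p under 0.05. On array B it was 4, with none of the 21 among them, on subline means, 0 with sublines on both levels only (2714 at an unadjusted p under 0.05), 8 without tumours near the limit, and 2 each with Cap1 as a continuous value, with all arrays and with composition covariates. Near Cap1 it was 3 without tumours near the limit, 11 after quantile normalization and 7 among brighter probe sets. There it was 0 on subline means, with sublines on 1 level only, on both levels only, with Cap1 as a continuous value, with all arrays and with composition covariates, where 44, 45, 39, 40, 62 and 37 genes had an unadjusted p under 0.05. Leaving out each replicate number gave 0 to 2195 on array A, 1 to 151 on array B and 0 to 27 near Cap1. Leaving out sublines 7, 21, 24 and 27 gave 649, 32, 410 and 9 on array A and 9, 1, 10 and 3 near Cap1. Leaving out sublines 7, 10, 21 and 24 gave 85, 34, 1 and 6 on array B. The share of array A calls that were higher, 72.1% in the report, was 51.5% among brighter probe sets, 56.8% without subline 24, 60.2% without subline 7, 33.3% of 3 with all arrays and 30.4% of 23 without replicate 1. With sublines on 1 level only all 26 calls were lower. Alternatives for single genes covered 12 called genes near Cap1, 8 on array A with the smallest p in each direction and the 4 on array B. For these 12, 147 alternatives kept the call, 107 lost it with the sign kept, and 5, all with all arrays, reversed. The reversed genes were Ahdc1 at -0.03, Guca2a at -0.13, Dmbx1 at -0.08, Ccdc163 at -0.02 and S100pbp at 0.17. The fit with all arrays places the array A values of subline 23 and of tumour 3 of subline 25 by the same limit. Other causes were not tested.

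With the replicate block the counts were 2093, 16 and 27. Same-numbered tumours came from different sublines, and their deviations from the subline means had a median correlation of 0.000675 on array A, against -0.00298 for other numbers. On array A 14 of 52 tumours correlated best with their own number, so the numbers do not pair the tumours. The 13 Cap1-low tumours, 6 of them in sublines 10 and 21, limit every comparison.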

Other observations

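The widest called differences on array A belonged to probe sets with no gene name here. Chosen after their values were seen, 5 of the 13 called probe sets that differed by more than 0.5 had no symbol, and they were lower in Cap1-high tumours, with differences from -2.72 to -1.19 on the log2 scale. The one with the widest difference averaged 6.69 in Cap1-high tumours, range 5.05 to 12.05, against 9.41 in Cap1-low tumours, range 5.18 to 13.06 (adjusted p 0.0172, limma). Both groups thus held tumours at nearly the full range. The named ones, also chosen after their values were seen, included Cldn1, a tight junction protein that averaged 8.75 in Cap1-high and 8.23 in Cap1-low tumours, a difference of 0.52 ± 0.15. Vsir, an inhibitory receptor of T cells and myeloid cells, averaged 8.48 in Cap1-high and 9.02 in Cap1-low tumours, and Ampd3, an AMP deaminase, 8.27 in Cap1-high and 8.81 in Cap1-low tumours.

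On the arrays left out of the split the 2 Cap1 probe sets did not run together. Tumours 1, 2 and 3 of subline 23 read 11.05, 9.80 and 6.85 on the first and 8.94, 9.26 and 9.52 on the second. Tumour 3 of subline 25 read 9.72 on the first and 8.80 on the second.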
